A study of Homo sapiens with 9 samples.

Results

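The NOTCH group described here holds the probe sets that the HG-U133 Plus 2.0 annotation maps to 1 symbol only, that symbol being NOTCH1, NOTCH2, NOTCH3, JAG1, JAG2, DLL1, HES1, HEY1, RBPJ or NUMB. These were 10 of the 19775 genes so named on the array, and 27 of the 54613 probe sets that are not controls: 6 for JAG1, 4 for NOTCH2, 3 each for HES1 and RBPJ, 2 each for NOTCH1, NOTCH3, JAG2, DLL1 and HEY1, and 1 for NUMB. A further 4 probe sets name a member together with other genes and were left out. The cells were MDA-MB-231, an established line of triple-negative breast cancer with mesenchymal features, and all arrays come from this 1 line. Wells were given Qmimic, Dmimic or AllStar, a negative control, each at 10 nM by reverse transfection with a lipid reagent, and RNA was taken after 48 h. Each group had 3 biological replicates, 1 array each. The title of the series mentions miR-34a, a microRNA, and AXL, a receptor kinase, but the labels explain neither Q nor D and give no sequence of a mimic.

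NOTCH receptors are cell-surface proteins that are switched on by ligands on a neighbouring cell. Binding leads to cleavage by an ADAM protease and then by gamma-secretase, and the freed intracellular part enters the nucleus, where it joins the DNA-binding protein RBPJ and a MAML co-activator to switch on genes such as HES1 and HEY1. NUMB, an endocytic adaptor, holds the receptor back. NOTCH1 and JAG1 are among the reported targets of miR-34a in human cells, and JAG1 is known for its high level in basal-like breast cancers.

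A microRNA finds its targets mainly through its seed, bases 2 to 8, which pair with sites in the mRNA. The mature miR-34a sequence in RefSeq is shown because the title names it, with the seed in capitals, and it stands on the minus strand of chr1:9151735-9151756 in GRCh38.p14.
hsa-miR-34a-5p: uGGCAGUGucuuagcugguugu
The sites in the member mRNAs were not analysed here. The promoter of HES1 is shown next because HES1 is the member usually read as the output of the pathway, and in mouse the Hes1 promoter is a known binding place of RBPJ. The 100 bases that end just before the start of the gene lie on the plus strand of chr3:194136048-194136147 in GRCh38.p14 (RefSeq), and the capitals mark the letters TGGGAA, the core of the RBPJ motif.
HES1 promoter: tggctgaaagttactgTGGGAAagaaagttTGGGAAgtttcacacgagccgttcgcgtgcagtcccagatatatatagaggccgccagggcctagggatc
The matches begin at -84 and -70, counted from the gene start. RefSeq gave promoter windows of 250 bases before to 50 after the start for 8 of the 10 members, 12 windows in all, and each motif was searched on both strands. TGGGAA was in 2 of these 12 windows, that of HES1 and 1 of the windows of RBPJ, and in 24.0% of all 35116 windows. The longer GTGGGAA, which contains it, was in the same 2 windows and in 6.25% of all. CACGNG, the letters of a site that HES and HEY proteins bind, was in 7 of the 12 and in 30.5% of all. A match describes the letters in the window and does not show binding.

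One array, AllStar replicate 3, was unlike the rest. It correlated with the other 8 at 0.974 to 0.981, while these 8 correlated with each other at 0.993 to 0.998, and the interquartile range of its log2 values was 2.99, against 3.41 to 3.53. On it, 17 of the 27 member probe sets lay below the mean of AllStar replicates 1 and 2, with a median of -0.14 and a range of -1.09 (NUMB) to 0.92 (a JAG1 probe set). Over all probe sets the median of the same difference changed with the mean level of AllStar replicates 1 and 2. It was 0.13 under a level of 4 and 0.21 at 4 to 6. At 6 to 8 it was -0.26, at 8 to 10 it was -0.45, and over 10 it was -0.32. Dim probe sets thus tended to lie higher on this array and bright ones lower, whatever the gene. The differences of the members from AllStar are therefore given with and without this array. The line was checked against its markers. VIM, the mesenchymal filament protein, was at 13.63 to 13.69 over the group means, and CDH1, the epithelial cadherin, at 3.55 to 3.79. Of the leukocyte markers, PTPRC was at 3.81 to 4.01 and LYZ at 3.80 to 3.85. CD14 at 5.79 to 6.09 lay above the array medians, and CD3E at 5.38 to 5.60 lay near them. HBB, a globin of red cells that stood on the same list, was at 5.93 to 6.06, above the medians. Of the markers of fibroblasts and endothelium, COL1A1 at 7.25 to 7.30 and PECAM1 at 6.16 to 6.53 lay above the medians. DCN, VWF, COL3A1, CDH5 and LUM were at 3.15 to 5.57. SPARC, listed as high in this line, was at 3.65 to 3.80. Of 7 genes listed as low, CDH1 and PGR lay below the array medians. KRT19 was at 11.90 to 12.29, ERBB2 at 8.44 to 8.70 and GATA3 at 8.05 to 8.53. EPCAM was at 7.85 to 8.06 and ESR1 at 6.84 to 6.99, so most of that list lay above the medians, against its label. Each marker was read on its brightest probe set, which favours high values, and the values carry no detection call. The ESR1 probe set has a suffix that marks probes that can also bind other transcripts. A level above the medians alone therefore does not show that a gene listed as low, such as ESR1, is expressed. In a bulk sample, fewer cells of a type and less RNA per cell cannot be told apart.

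**Figure D1:**
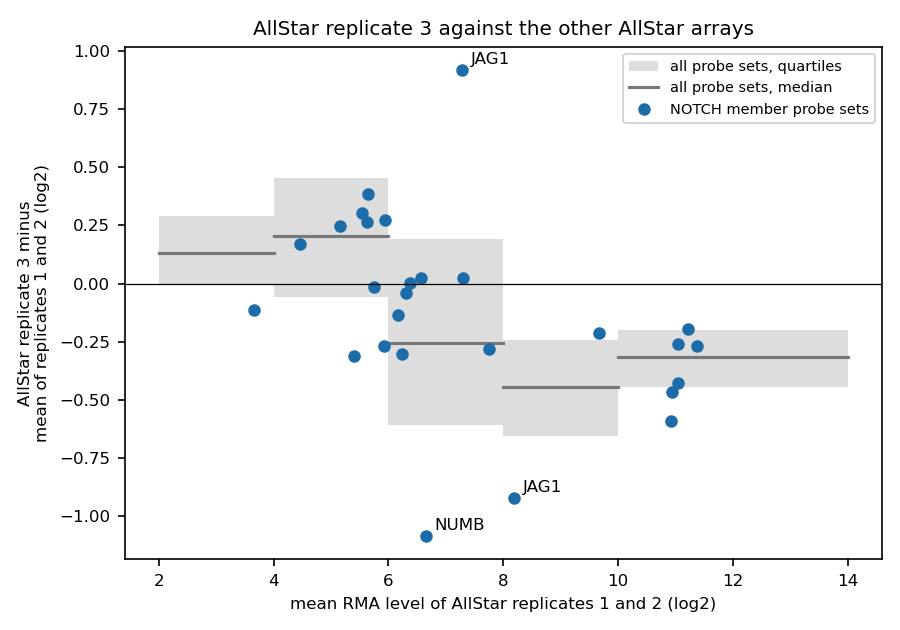
Each point is 1 NOTCH member probe set, with the mean RMA level of AllStar replicates 1 and 2 on the x axis (log2) and AllStar replicate 3 minus that mean on the y axis (log2); grey lines and bands give the median and quartiles of all probe sets in bins of level. NUMB at -1.09 and 2 JAG1 probe sets at -0.92 and 0.92 lie farthest from 0.

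No member probe set passed the test in any comparison, and the differences were small. The test was limma's moderated statistic fitted on all 54613 probe sets, with a Benjamini-Hochberg adjusted p under 0.05 and a change of at least 1.5-fold. For Qmimic against AllStar 0 of 27 members passed with all 9 arrays, where 0% of all probe sets did, and 0 of 27 without AllStar replicate 3, where 0.54% did. For Dmimic against AllStar 0 of 27 passed, beside 0.00549% of all probe sets with 9 arrays and 0.864% without AllStar replicate 3. For the mean of both mimics the member counts were also 0 and 0, beside 0.0806% and 0.721%, and for Qmimic against Dmimic 0 and 0, beside 0% and 0.0806%. With all 9 arrays limma gave an unadjusted p under 0.05 for 3 of 27 members with Qmimic (16.3% of all probe sets), 6 with Dmimic (12.8%), 5 over both mimics (19.2%) and 3 between the mimics (2.41%). Without AllStar replicate 3 it did so for 6 (18.2%), 6 (17.1%), 9 (19.1%) and 6 (11.1%). Among the 27 probe sets the log2 difference with all 9 arrays ran from -0.37 to 0.50 for Qmimic (median -0.04, and -0.03 over all probe sets) and from -0.45 to 0.45 for Dmimic (median -0.02, and -0.03 over all probe sets). The median 95% margin, which is added to and taken from a difference to give its interval, was 0.23 with all 9 arrays and 0.20 without AllStar replicate 3.

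With the adjusted p alone and without AllStar replicate 3, a small set of members had an adjusted p under 0.05, all of them lower with a mimic. This was 1 of 27 for Qmimic, a JAG1 probe set (1.75% of all probe sets), and 3 of 27 for Dmimic, 1 of NOTCH1 and 2 of NOTCH2 (2.31% of all). For the mean of both mimics it was 3 of 27, 1 each of NOTCH1, NOTCH2 and JAG1 (3.02% of all), and between the mimics 0 of 27 (0.214% of all). All of these sizes lay under 1.5-fold, and the counts moved with the fit and with single further arrays. With a replicate block added, the counts for Qmimic, Dmimic and both mimics were 0, 0 and 0. With array weights on all 9 arrays they were 8, 5 and 10, which took in HEY1 and, for Qmimic and both mimics, both NOTCH3 probe sets. Without weights, all 9 arrays gave 0, 0 and 0 as deposited, and 0, 1 and 2 after cyclic loess. Repeated quantile normalisation of all 9 arrays gave 0, 0 and 2. The 1 with Dmimic was 210756_s_at of NOTCH2, and the 2 over both mimics were this and 218902_at of NOTCH1 each time. No share over all probe sets stands beside the counts of these fits or of those that follow. They describe how the member counts moved with the fit and show nothing particular to the members. The Qmimic count of 1 was 0 without AllStar replicate 1, AllStar replicate 2 or Qmimic replicate 1 as well, 2 without Dmimic replicate 2 and 3 without Dmimic replicate 3. The Dmimic count of 3 was 0 without AllStar replicate 1, AllStar replicate 2, Dmimic replicate 3 or any 1 of the Qmimic arrays, 1 without Dmimic replicate 1 and 4 without Dmimic replicate 2. The count of 3 over both mimics was 0 without AllStar replicate 1, AllStar replicate 2, Qmimic replicate 1 or Qmimic replicate 2, and 1 without Qmimic replicate 3.

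**Figure D2:**
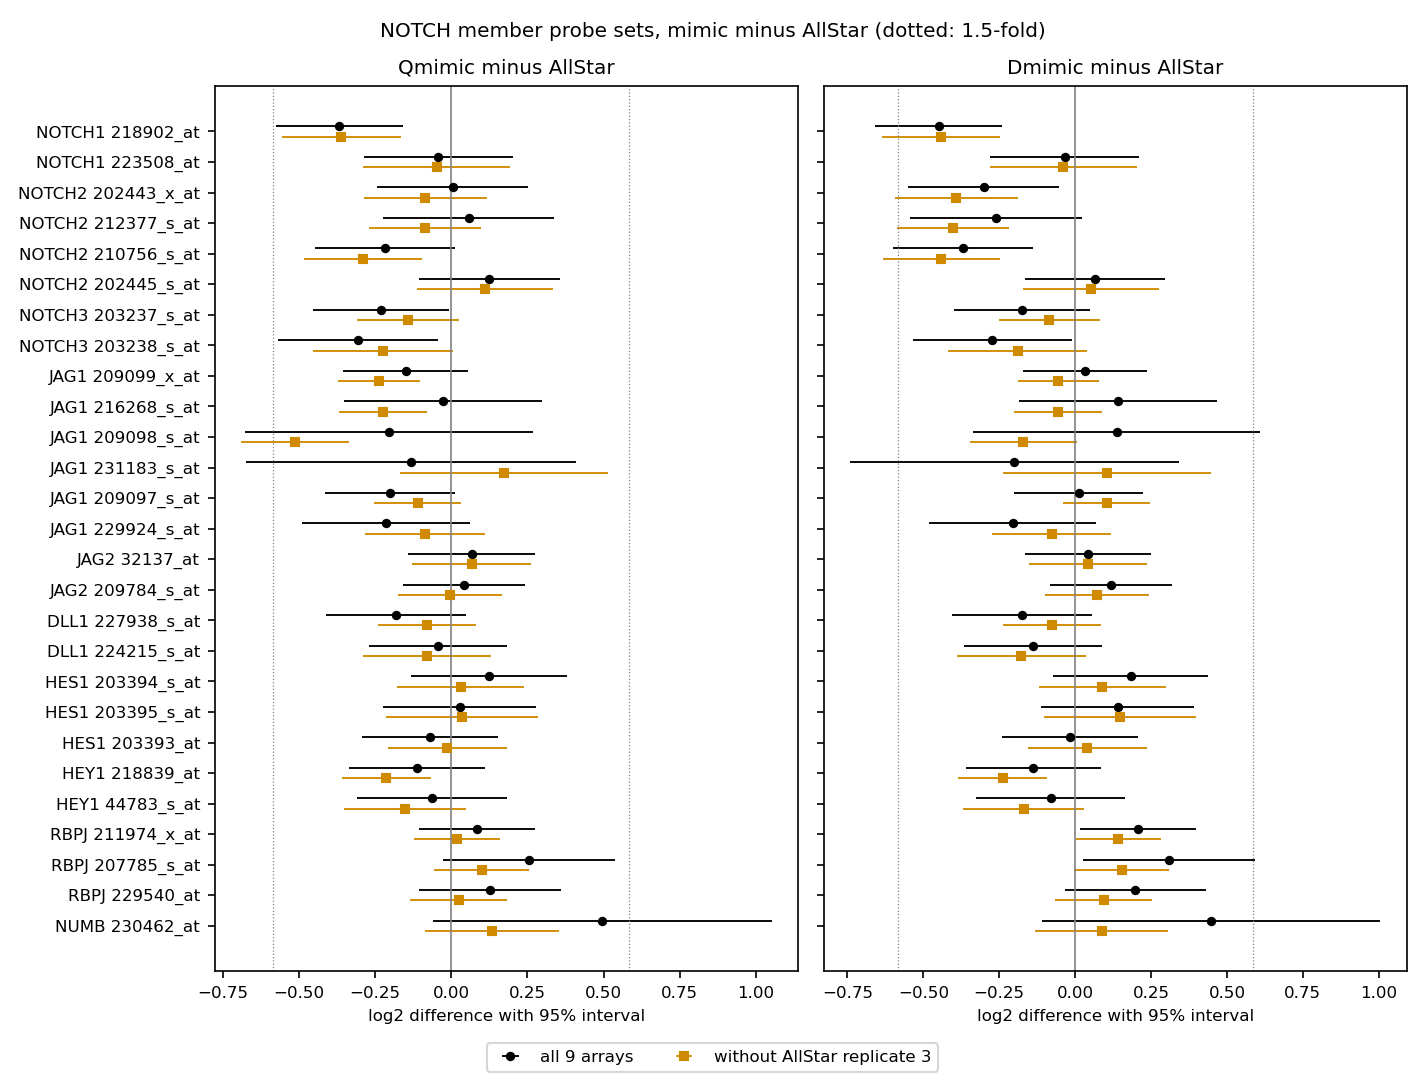
Log2 difference from AllStar (x axis) for the 27 NOTCH member probe sets (rows), Qmimic on the left and Dmimic on the right, with 95% intervals from limma; black circles are the fit of all 9 arrays, orange squares the fit without AllStar replicate 3, and dotted lines mark 1.5-fold. The brighter NOTCH1 probe set lies at -0.37 and -0.45 with all 9 arrays, and no interval of HES1 reaches a dotted line.

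The receptors were examined first. NOTCH1, a receptor among the reported miR-34a targets, was brighter on 218902_at than on its other probe set. There its log2 levels were 6.94, 6.95 and 6.92 with Qmimic, 6.84, 7.01 and 6.72 with Dmimic, and 7.24, 7.36 and 7.32 with AllStar. All 6 mimic arrays lay below all 3 AllStar arrays, AllStar replicate 3 included, which differed from the mean of the other 2 by 0.02. The difference was -0.37 for Qmimic (95% margin 0.21, adjusted p = 0.185 from limma) and -0.45 for Dmimic (margin 0.21, adjusted p = 0.12). These are sizes of 1.29-fold and 1.37-fold. By an exact permutation test, two-sided, p was 0.1 for each, the smallest that 3 arrays against 3 allow. Without AllStar replicate 3 the differences were as large, -0.36 (adjusted p = 0.0696) and -0.44 (adjusted p = 0.0348). Averaged over the mimics, NOTCH1 differed from AllStar by -0.41 with all 9 arrays (adjusted p = 0.0705) and -0.40 without AllStar replicate 3 (adjusted p = 0.0293).

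The second NOTCH1 probe set (223508_at) showed no such separation. Its levels were 5.54, 5.75 and 5.83 with Qmimic, 5.56, 5.88 and 5.71 with Dmimic, and 5.73, 5.78 and 5.74 with AllStar. The groups overlapped, and Qmimic and Dmimic differed from AllStar by -0.04 (margin 0.25, adjusted p = 0.832) and -0.03 (margin 0.25, adjusted p = 0.888), and without AllStar replicate 3 by -0.05 (adjusted p = 0.860) and -0.04 (adjusted p = 0.908). The values carry no detection call, so it is not known which probe sets at low levels lie above background.

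NOTCH2, a receptor with 4 probe sets, was lower with Dmimic than with Qmimic on 3 of them in every array. Of all probe sets 7.11% lay so, and the 3 measure 1 gene. On 212377_s_at the levels were 10.91, 11.03 and 10.95 with Qmimic, 10.66, 10.76 and 10.51 with Dmimic, and 11.04, 11.06 and 10.62 with AllStar. Here the Dmimic arrays lay below the Qmimic arrays and below AllStar replicates 1 and 2, while AllStar replicate 3 lay among them. Dmimic differed from AllStar by -0.26 with all 9 arrays (adjusted p = 0.416) and by -0.40 without AllStar replicate 3 (adjusted p = 0.0389). Qmimic differed by 0.06 (adjusted p = 0.805) and -0.09 (adjusted p = 0.636) in the same fits.

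On 210756_s_at the levels were 9.35, 9.39 and 9.41 with Qmimic, 9.30, 9.33 and 9.07 with Dmimic, and 9.61, 9.73 and 9.46 with AllStar, and all mimic arrays lay below all AllStar arrays. The differences with all 9 arrays were -0.22 for Qmimic (adjusted p = 0.315) and -0.37 for Dmimic (adjusted p = 0.203), and without AllStar replicate 3 they were -0.29 (adjusted p = 0.119) and -0.44 (adjusted p = 0.0345). On the brightest probe set, 202443_x_at, whose suffix marks probes that can also bind other transcripts, Dmimic differed from AllStar by -0.30 (adjusted p = 0.311) and, without AllStar replicate 3, by -0.39 (adjusted p = 0.0543). Qmimic differed there by 0.00 (adjusted p = 0.984) and, without that array, by -0.09 (adjusted p = 0.671). The dimmest, 202445_s_at, lay at 6.28 to 6.59 with Qmimic, 6.29 to 6.41 with Dmimic and 6.20 to 6.43 with AllStar, and all groups overlapped. Its differences were 0.12 and 0.07 with all 9 arrays, and 0.11 and 0.05 without AllStar replicate 3. The NOTCH2 mRNA shares sequence with the NOTCH2NL genes, so signals of the bright probe sets may hold more than NOTCH2.

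NOTCH3, the third receptor, lay at 4.86, 4.94 and 4.98 with Qmimic, 4.73, 5.06 and 5.09 with Dmimic, and 5.11, 5.19 and 5.40 with AllStar on 203238_s_at. The mimic arrays were below the AllStar arrays, narrowly so for Dmimic. AllStar replicate 3 held the highest value. NOTCH3 differed by -0.31 for Qmimic (adjusted p = 0.272) and -0.27 for Dmimic (adjusted p = 0.374) with all 9 arrays, and by -0.22 (adjusted p = 0.288) and -0.19 (adjusted p = 0.396) without that array. The other NOTCH3 probe set gave -0.23 for Qmimic (adjusted p = 0.299) and -0.17 for Dmimic (adjusted p = 0.473) with all 9 arrays, and -0.14 (adjusted p = 0.351) and -0.09 (adjusted p = 0.637) without AllStar replicate 3.

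**Figure D3:**
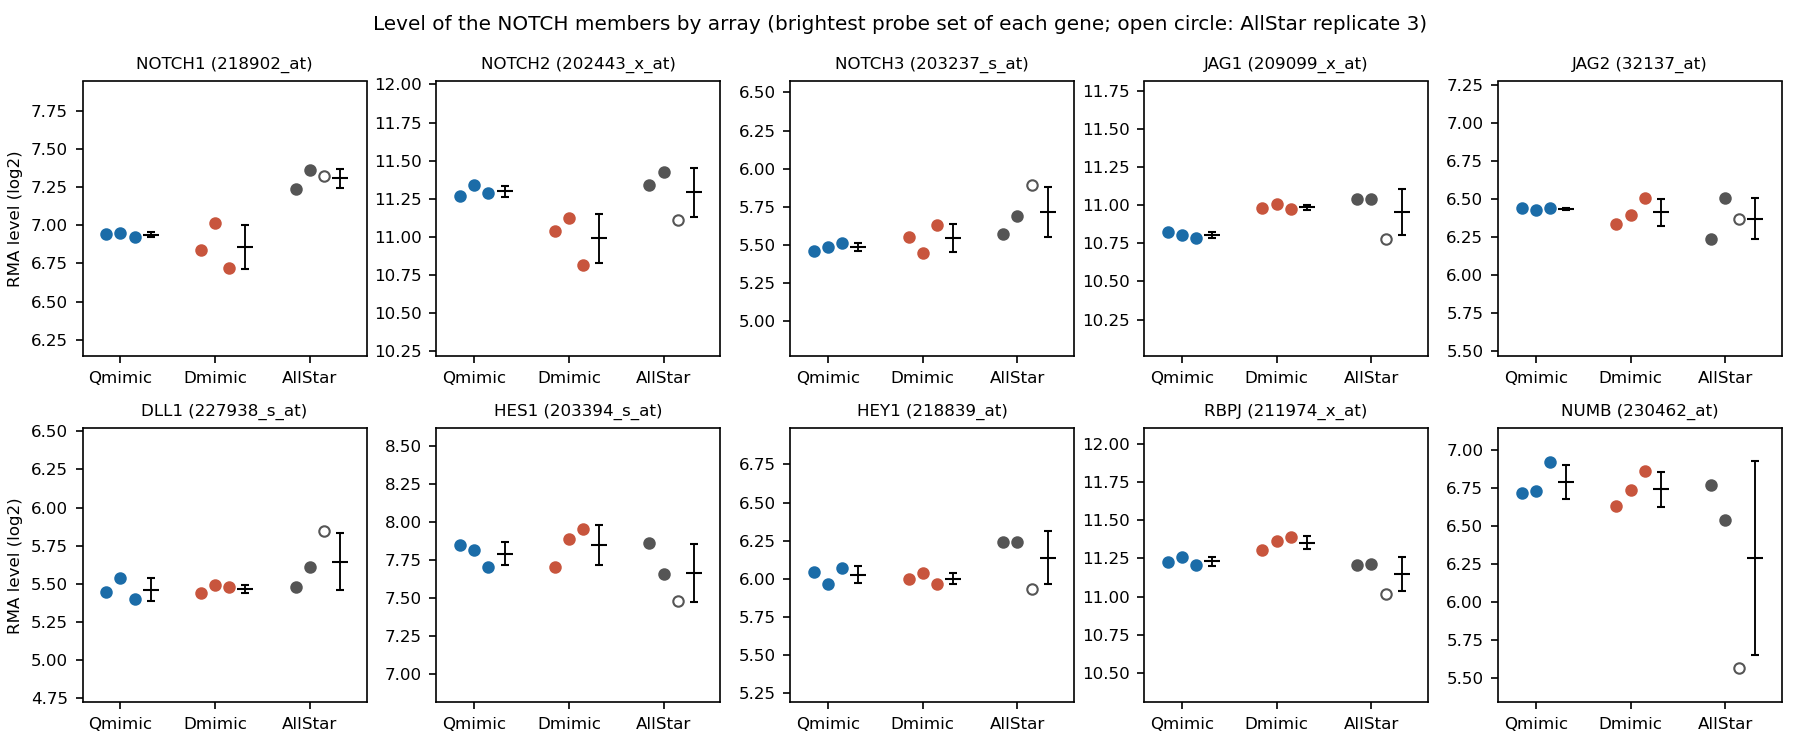
RMA level (log2, y axis, each panel spanning 1.8 units) of the probe set with the highest mean for each of the 10 genes, by group; points are arrays, the open circle is AllStar replicate 3, and bars give the mean and SD of 3 arrays. NOTCH1 is lower on all 6 mimic arrays than on all AllStar arrays, and AllStar replicate 3 lies lowest of the AllStar arrays for NUMB (5.57) and JAG1 (10.78).

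Among the member ligands, only JAG1 had probe sets whose Qmimic and Dmimic arrays did not overlap. On 4 of its 6 probe sets every Qmimic array lay below every Dmimic array, as on 8.95% of all probe sets. These 4 measure 1 mRNA, and the lowest adjusted p between the mimics for JAG1 was 0.115 from limma, without AllStar replicate 3. On 209098_s_at the levels were 7.55, 7.78 and 7.72 with Qmimic, 8.03, 8.05 and 7.99 with Dmimic, and 8.24, 8.15 and 7.27 with AllStar. AllStar replicate 3 lay below all other arrays, and AllStar replicates 1 and 2 lay above them. The difference of Qmimic from AllStar was -0.21 with all 9 arrays (margin 0.47, adjusted p = 0.58) and -0.51 without AllStar replicate 3 (margin 0.18, adjusted p = 0.0172), a size of 1.43-fold. For Dmimic it was 0.14 (adjusted p = 0.76) and -0.17 (adjusted p = 0.307), so its sign turned with that array.

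On the brightest JAG1 probe set, 209099_x_at, the levels were 10.82, 10.80 and 10.79 with Qmimic, 10.98, 11.00 and 10.97 with Dmimic, and 11.04, 11.04 and 10.78 with AllStar. The 3 arrays of each mimic lay close together, and those of Qmimic lay below those of Dmimic. Qmimic differed from AllStar by -0.15 with all 9 arrays (adjusted p = 0.389) and by -0.24 without AllStar replicate 3 (adjusted p = 0.0784). Dmimic differed by 0.03 (adjusted p = 0.875) and -0.06 (adjusted p = 0.721). Of the 6 JAG1 probe sets, 6 had a negative difference for Qmimic and 2 for Dmimic with all 9 arrays, but 5 and 4 without AllStar replicate 3.

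The remaining JAG1 probe sets were dimmer or less separated from AllStar. On 216268_s_at the levels were 10.68, 10.75 and 10.68 with Qmimic, 10.84, 10.87 and 10.91 with Dmimic, and 10.96, 10.90 and 10.34 with AllStar. Its differences were -0.03 for Qmimic and 0.14 for Dmimic with all 9 arrays, and -0.23 and -0.06 without AllStar replicate 3, the lowest array. On 209097_s_at the levels were 5.86, 5.83 and 5.80 with Qmimic, 6.08, 6.04 and 6.00 with Dmimic, and 5.97, 5.91 and 6.22 with AllStar. The Qmimic arrays lay below all others, and the Dmimic arrays overlapped AllStar: -0.20 for Qmimic and 0.01 for Dmimic with all 9 arrays, and -0.11 and 0.10 without AllStar replicate 3. On 229924_s_at JAG1 lay at 5.51 to 5.59 with Qmimic, 5.39 to 5.67 with Dmimic and 5.62 to 6.03 with AllStar, the Qmimic arrays below AllStar and the mimics overlapping. Its differences were -0.22 and -0.21 with all 9 arrays, and -0.09 and -0.08 without AllStar replicate 3. The adjusted p of these 3 probe sets was 0.108 or more in both fits.

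The probe set 231183_s_at of JAG1 lay at 7.29, 7.77 and 7.33 with Qmimic, 7.46, 7.18 and 7.55 with Dmimic, and 7.42, 7.16 and 8.21 with AllStar. AllStar replicate 3 held the highest value here, and the groups overlapped. The differences were -0.13 for Qmimic and -0.20 for Dmimic with all 9 arrays, and 0.17 and 0.11 without AllStar replicate 3, so both signs turned.

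JAG2, the other Jagged ligand, and DLL1, a Delta-like ligand, lay close together in all groups. JAG2 on 32137_at was at 6.44, 6.43 and 6.44 with Qmimic, 6.34, 6.39 and 6.51 with Dmimic, and 6.23, 6.50 and 6.37 with AllStar. Its differences over both probe sets were 0.04 to 0.07 for Qmimic and 0.04 to 0.12 for Dmimic with all 9 arrays, and the 95% intervals ran from -0.17 to 0.32. The differences were -0.00 to 0.07 and 0.04 to 0.07 without AllStar replicate 3. DLL1 on 227938_s_at was at 5.45, 5.54 and 5.40 with Qmimic, 5.44, 5.49 and 5.48 with Dmimic, and 5.48, 5.61 and 5.85 with AllStar. Its differences were -0.18 for each mimic with all 9 arrays, and -0.08 for each without AllStar replicate 3, the highest array. On the dimmer 224215_s_at, at 3.33 to 3.69 over all arrays, DLL1 differed by -0.04 with Qmimic and -0.14 with Dmimic, and by -0.08 and -0.18 without that array. The groups overlapped for both genes with all 9 arrays, and the adjusted p of their 4 probe sets was 0.369 or more for each mimic in both fits.

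The nuclear members followed. RBPJ carries the receptor's signal on DNA. On all 3 of its probe sets every Dmimic array lay above every AllStar array. These 3 measure 1 gene, and 11.9% of all probe sets lay so. On 207785_s_at RBPJ lay at 10.97, 11.11 and 11.04 with Qmimic, 11.10, 11.14 and 11.03 with Dmimic, and 10.95, 10.93 and 10.47 with AllStar. The differences were 0.26 for Qmimic (adjusted p = 0.329) and 0.31 for Dmimic (adjusted p = 0.353) with all 9 arrays. Without AllStar replicate 3, the lowest array, they were 0.10 (adjusted p = 0.497) and 0.15 (adjusted p = 0.303). On the other RBPJ probe sets Dmimic differed from AllStar by 0.21 (adjusted p = 0.358) and 0.20 (adjusted p = 0.445), and without AllStar replicate 3 by 0.14 (adjusted p = 0.285) and 0.09 (adjusted p = 0.576). Qmimic differed there by 0.08 and 0.13, and by 0.02 and 0.02 without that array.

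HES1, a transcriptional repressor whose promoter is printed above, lay at 7.85, 7.82 and 7.71 with Qmimic, 7.71, 7.89 and 7.95 with Dmimic, and 7.86, 7.66 and 7.48 with AllStar on its brightest probe set (203394_s_at). All 3 groups overlapped on this and on both other HES1 probe sets. The differences over the 3 probe sets were -0.07 to 0.12 for Qmimic and -0.02 to 0.18 for Dmimic with all 9 arrays. Their 95% intervals ran from -0.29 to 0.38 and from -0.24 to 0.44, so changes of 1.5-fold lay outside them in either direction. The differences without AllStar replicate 3 were -0.01 to 0.03 for Qmimic and 0.04 to 0.15 for Dmimic, and the sign of the dimmest probe set turned for Dmimic.

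HEY1, a related repressor, lay on 218839_at at 6.04, 5.96 and 6.07 with Qmimic, 6.00, 6.04 and 5.97 with Dmimic, and 6.24, 6.24 and 5.94 with AllStar. AllStar replicates 1 and 2 were above all mimic arrays, and AllStar replicate 3 was below them. The mimics differed from AllStar by -0.11 (Qmimic, adjusted p = 0.524) and -0.14 (Dmimic, adjusted p = 0.541) with all 9 arrays, and without AllStar replicate 3 by -0.21 (adjusted p = 0.125) and -0.24 (adjusted p = 0.0879). The second HEY1 probe set differed by -0.06 with Qmimic and -0.08 with Dmimic with all 9 arrays, and by -0.15 and -0.17 without AllStar replicate 3 (adjusted p = 0.407 and 0.381).

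NUMB, the inhibitor of the pathway, lay at 6.72, 6.73 and 6.92 with Qmimic, 6.63, 6.73 and 6.86 with Dmimic, and 6.77, 6.54 and 5.57 with AllStar. Only AllStar replicate 3 stood away from the rest. The differences of 0.50 for Qmimic (adjusted p = 0.333) and 0.45 for Dmimic (adjusted p = 0.463), the highest of all members with 9 arrays, were 0.13 (adjusted p = 0.518) and 0.09 (adjusted p = 0.735) without it.

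Member probe sets were also counted by whether the arrays of the groups overlapped. With Qmimic 1 of 27 lay above and 6 below all AllStar arrays, where 14.1% of all probe sets lay above and 10.8% below. With Dmimic it was 3 above and 3 below, where 11.9% lay above and 7.04% below. Over the arrays of both mimics together, 1 lay above and 3 below all AllStar arrays, where 8.33% of all probe sets lay above and 3.83% below. Against AllStar replicates 1 and 2 alone, Qmimic had 1 above and 12 below (17.9% and 20% of all probe sets), and Dmimic 4 above and 9 below (17% and 16.5%). Probe sets of 1 gene measure the same mRNA and are not independent: the 12 below with Qmimic comprised 5 of JAG1, 3 of NOTCH2, 2 of NOTCH3 and 1 each of NOTCH1 and HEY1.

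The direct comparison of Qmimic with Dmimic asks whether the 2 mimics differ, and it draws on AllStar only for the pooled spread. Qmimic arrays lay above all Dmimic arrays on 3 of 27 probe sets, all of NOTCH2, and below on 5, of which 4 were JAG1 and 1 RBPJ. Over all probe sets 7.11% lay above and 8.95% below. For NOTCH2 the differences on these 3 were 0.31 (95% margin 0.25), 0.32 (margin 0.28) and 0.15 (margin 0.23) with all 9 arrays, and Dmimic replicate 3 held the lowest value on each. Without Dmimic replicate 3 they were 0.22, 0.25 and 0.07. For JAG1 the 4 differences were -0.34 (margin 0.47), -0.21 (margin 0.21), -0.18 (margin 0.20) and -0.17 (margin 0.32).

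These differences between the mimics did not pass the adjustment. With all 9 arrays the adjusted p was 1.00 for each member probe set. Without AllStar replicate 3, which narrows the pooled spread, the lowest was 0.115 (209098_s_at of JAG1, margin 0.16), followed by 0.154 (212377_s_at of NOTCH2, margin 0.17). For NOTCH1 on 218902_at the mimics differed by 0.08 with a margin of 0.21, and for HES1 by -0.11 to -0.05 over its 3 probe sets, with intervals from -0.37 to 0.20.

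**Figure D4:**
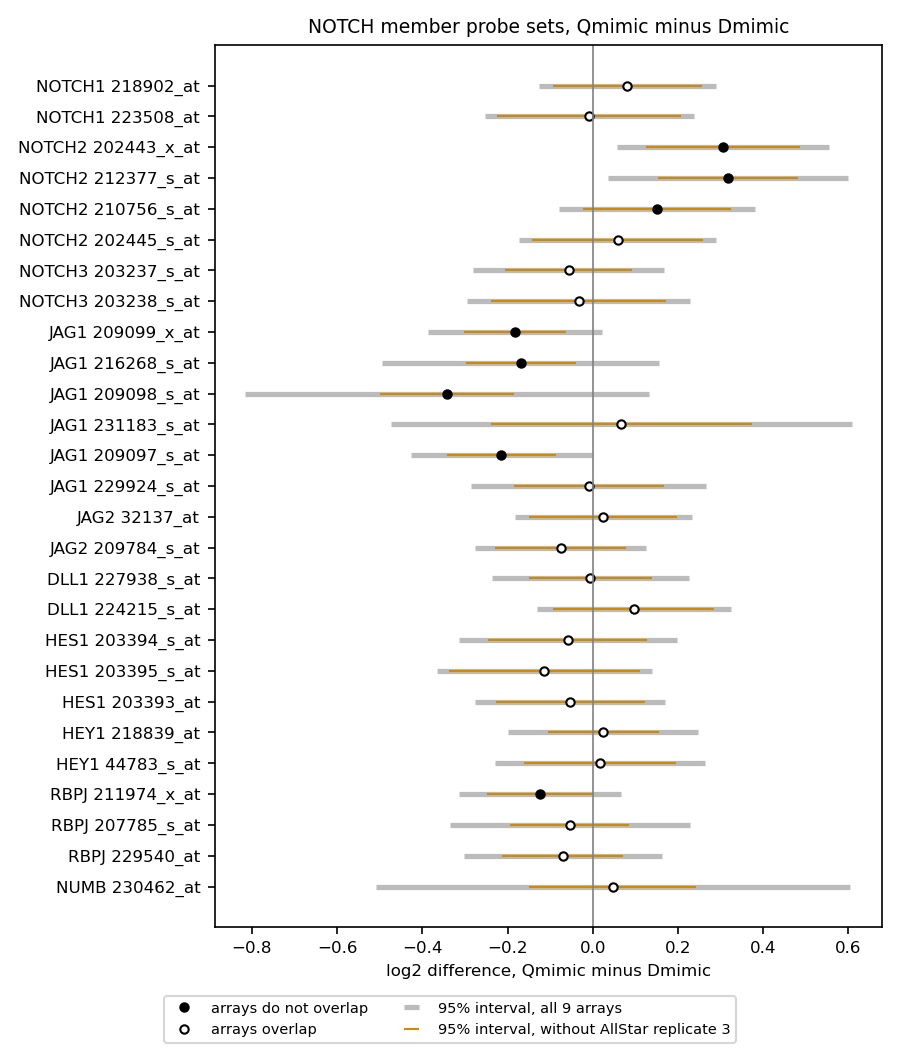
Log2 difference of Qmimic minus Dmimic (x axis) for the 27 NOTCH member probe sets (rows); filled circles mark probe sets whose arrays do not overlap, grey bars the 95% interval from all 9 arrays and orange lines that without AllStar replicate 3. The 3 filled NOTCH2 points lie at 0.15 to 0.32 and the 4 filled JAG1 points at -0.34 to -0.17.

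The other genes of the pathway were taken from a list of 64, of which 60 had a probe set that names them alone, and the brightest stood for each gene. With all 9 arrays 0 of 60 passed for Qmimic, Dmimic, both mimics and Qmimic against Dmimic, where 0%, 0.0101%, 0.131% and 0% of the 19775 genes did. Limma gave an unadjusted p under 0.05 for 14, 12, 16 and 3 of them, beside 19.7%, 17.3%, 24.1% and 2.54% of all genes. Without AllStar replicate 3 the counts were 0, 1 lower, 0 and 0, beside 0.693%, 1.27%, 1.04% and 0.0961% of all genes. By adjusted p alone in that fit, 3 were higher and 1 lower with Qmimic (2.09% of all genes), 2 higher and 2 lower with Dmimic (3.32%), 2 higher and 3 lower over both mimics (4.03%), and 1 lower with Qmimic than with Dmimic (0.288%). The median log2 difference of the list with all 9 arrays was 0.03 for Qmimic and 0.07 for Dmimic, against -0.02 and -0.01 over all genes.

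The gene that passed was HDAC1, a histone deacetylase found in repressor complexes that RBPJ joins in the absence of NOTCH signal. Its levels were 10.72, 10.72 and 10.80 with Qmimic, 10.50, 10.62 and 10.20 with Dmimic, and 11.11, 11.07 and 10.53 with AllStar. Without AllStar replicate 3 it fell by 0.65 on the log2 scale with Dmimic (SE 0.11, 1.57-fold, adjusted p = 0.0217), and with all 9 arrays the difference was -0.46 (SE 0.16, adjusted p = 0.29). The call was lost without AllStar replicate 1, AllStar replicate 2 or Dmimic replicate 3 as well.

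MAML2, a co-activator of the NOTCH complex, lay at 9.53, 9.37 and 9.28 with Qmimic, 9.30, 9.18 and 9.63 with Dmimic, and 8.82, 8.82 and 8.34 with AllStar. All mimic arrays were above all AllStar arrays. Qmimic exceeded AllStar by 0.73 (adjusted p = 0.166) and Dmimic by 0.71 (adjusted p = 0.133) with all 9 arrays, and the values were 0.57 (adjusted p = 0.0486) and 0.55 (adjusted p = 0.0484) without AllStar replicate 3, the last values being under 1.5-fold. Its second probe set gave 0.49 (adjusted p = 0.291) and 0.55 (adjusted p = 0.319) with all 9 arrays, and 0.24 (adjusted p = 0.390) and 0.30 (adjusted p = 0.306) without AllStar replicate 3. KCTD10, an adaptor of a ubiquitin ligase that the list had placed among the co-repressors, differed by 0.45 (adjusted p = 0.172) and 0.55 (adjusted p = 0.0908) with all 9 arrays and by 0.36 (adjusted p = 0.0436) and 0.47 (adjusted p = 0.0193) without AllStar replicate 3. Its second probe set gave 0.07 (adjusted p = 0.586) and 0.13 (adjusted p = 0.309) without that array.

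CCND1, the cyclin of the G1 phase and a NOTCH target, gave -0.37 for Qmimic against AllStar (adjusted p = 0.183), and -0.41 without AllStar replicate 3 (adjusted p = 0.0308). Its second probe set gave -0.25 without that array (adjusted p = 0.361). APH1A, a subunit of gamma-secretase, gave -0.50 for Dmimic without AllStar replicate 3 (adjusted p = 0.0463) and -0.37 with all 9 arrays (adjusted p = 0.315). Its other probe sets disagreed without AllStar replicate 3, at -0.53 (adjusted p = 0.0248) and -0.01 (adjusted p = 0.967). Between the mimics KAT2B, an acetyltransferase that assists the NOTCH complex, had the smallest adjusted p of the list: it lay at 8.10, 8.21 and 8.16 with Qmimic and 8.58, 8.53 and 8.58 with Dmimic, a difference of -0.41 (adjusted p = 0.0376 without AllStar replicate 3, and 1.00 with all 9 arrays). The next were DTX3L, a ubiquitin ligase (0.36, adjusted p = 0.0847), and the NOTCH ligand DNER (0.30, adjusted p = 0.128) in the same fit.

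The genes whose pattern was most like that of NOTCH1 over the 8 arrays without AllStar replicate 3, among the 9888 genes with a mean level above the median, were HAUS5 (Pearson r of 0.992, and 0.899 over all 9 arrays), TMEM201 (0.987 and 0.784) and PPP1R3E (0.985 and 0.549). For JAG1 they were TM4SF1 (0.985 and 0.760), PSME3IP1 (0.976 and 0.467) and SPPL2A (0.968 and 0.922). These are the highest of many correlations over few arrays that share their group means, and they are given as a description.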

How the data were processed

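Total RNA of MDA-MB-231 wells was labelled by the One Cycle kit and hybridised to HG-U133 Plus 2.0 arrays, per the labels' protocols. The values the authors deposited are RMA signals on the log2 scale, 1 per probe set, per the submitters' processing notes, which give no version. RMA corrects background, normalises arrays towards 1 shared distribution and summarises probes; the deposited arrays did not all share one, with an interquartile range of 2.99 to 3.53. The number of arrays sets the precision. No array was left out of the primary fit, and none was imputed. The 62 control probe sets were set aside and the other 54613 were tested with no filter on low values in limma 3.58.1 (R 4.3.3): 1 linear model with 3 groups, moderated statistics, and Benjamini-Hochberg adjustment over all 54613. A call needed an adjusted p under 0.05 and a change of at least 1.5-fold, and all adjusted p are from this model. The fit was also run on simulated data, with changes larger than those of the members and the same spread on every array. That run does not show how the fit handles small changes or an array like AllStar replicate 3. Exact permutation tests were two-sided (scipy 1.17.1). Replicates are biological per the labels, with no word on separate days, so p-values measure the spread between these wells.

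Probe sets were named by the annotation given with the platform, and for a further gene the brightest probe set was used. All probe sets of the 10 members were described, singly or by their range within a gene, and of the further pathway genes the 3 with the smallest adjusted p per comparison. The mean of both mimics is the exception, where the further genes were counted and no values of single genes are given. The members and lists were chosen with earlier results of these data known. Of 9 pairs of same-numbered replicates across groups, 3 had a residual correlation above 0.1 (range -0.28 to 0.22). The labels do not say that a number marks a shared day or plate, so no block was used in the primary fit. The alternatives were leaving out each array, a replicate block, other fold thresholds, only probe sets above the median level, repeated quantile normalisation, median centring, cyclic loess, array weights, another variance prior and only the groups compared.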

Additional observations from a re-analysis of the deposited data

How the results depend on the processing

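No member probe set passed both thresholds in any of the 4 comparisons under any of the alternatives tried, nor when AllStar replicate 3 was left out together with each other array in turn or with a replicate block, choices made after the data were examined. The replicate block gave 0 called members and 0 called further genes in each comparison, and leaving out 1 array at a time gave 0 members throughout. For the further pathway genes, where the count was 0 with all 9 arrays, Dmimic against AllStar gave 1 with cyclic loess (HDAC1) and 2 with array weights (HDAC1 lower, the gamma-secretase subunit PSENEN higher), and 0 to 1 over the fits that left out 1 array. With AllStar replicate 3 and 1 more array left out it gave 0 to 4. The mean of both mimics gave 1 with array weights (PSENEN), 0 in each fit that left out 1 array, and 0 to 2 with AllStar replicate 3 and 1 mimic array left out. The share of all genes called is given only for the fits of all 9 arrays and without AllStar replicate 3. The counts of further genes in the other fits are therefore not set against it. The array weights, whose estimation stopped before its tolerance was met, were 0.0572 for AllStar replicate 3 and 5.17 for AllStar replicate 2. With them the adjusted p of the brighter NOTCH1 probe set was 0.00181 for Qmimic and 0.00114 for Dmimic. Its difference kept its sign in all 17 alternative values for each mimic, over -0.48 to -0.30 and -0.55 to -0.38, with an adjusted p of up to 0.593 and 0.565. The cause of these shifts was not tested.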

Other observations

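The 4 probe sets that name a member beside other genes add values for NUMB and NOTCH2. Of 3 that name NUMB and LOC101928143, 207545_s_at lay at 8.26, 8.33 and 8.14 with Qmimic, 7.99, 7.99 and 7.99 with Dmimic, and 8.05, 7.94 and 6.86 with AllStar. The Qmimic arrays lay above all others, and AllStar replicate 3 lay below, as on the NUMB probe set described before. Qmimic differed from AllStar by 0.63 with all 9 arrays (adjusted p = 0.282 from limma) and by 0.25 without AllStar replicate 3 (adjusted p = 0.115). Dmimic differed by 0.37 (adjusted p = 0.518) and by -0.00 (adjusted p = 0.993). On 209073_s_at the values were 8.79 to 8.90 with Qmimic, 8.70 to 8.79 with Dmimic, and 8.79, 8.73 and 8.12 with AllStar. There the Qmimic arrays overlapped AllStar replicate 1, and AllStar replicate 3 was again the lowest array. The dimmest, 236930_at, lay at 4.02 to 4.06 with Qmimic, 3.91 to 4.04 with Dmimic, and 4.05, 3.71 and 3.95 with AllStar. All groups overlapped on it, and AllStar replicate 3 lay between the other AllStar arrays. The probe set shared by NOTCH2 and the NOTCH2NL genes (227067_x_at) lay at 8.71 to 8.84 with Qmimic, 8.47 to 8.86 with Dmimic and 8.47 to 8.90 with AllStar, and the groups overlapped.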
